A study of Physcomitrium patens with 4 samples.

Results

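The genes described here are the abundant transcripts that stood at least 8-fold higher in the pubs hy2 double mutant of the moss Physcomitrium patens than in wild type, both in red light and in the dark. They number 118 of the 32273 genes measured. They were chosen from the measured values themselves, as follows. Each gene's reads plus 0.5 were divided by the reads summed over all genes of the library. This share had to be at least 8 times as large in pubs hy2 as in wild type in both light conditions. Within pubs hy2, the share in red light had to be more than 0.5 times and less than 2 times that in the dark. The gene also needed more than 3 reads in at least 1 wild-type library, a mean RPKM (reads scaled to gene length and to the library total) of at least 30 over both pubs hy2 libraries, and a multi-mapping share under 0.1 in all 4 libraries. Genes that meet this last limit are called singly mapped. The excess in pubs hy2 and the small difference between red light and dark in that genotype therefore come from the selection and are given below as a description only.

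The 4 libraries were pubs hy2 after 1 hour of red light, pubs hy2 in the dark, wild type after 1 hour of red light and wild type in the dark, with 1 library per group. All came from protonema, the filamentous stage of the moss, labelled as chloronema of the Gransden2004 ecotype, 10 days old and kept 3 days in the dark. Red light had a wavelength of 660 nm and a fluence rate of 5 μmol m-2 s-1, at a temperature of 25 °C. The dark libraries were taken at time 0, so the light and the elapsed hour cannot be told apart. How many mutant lines stand behind the pubs hy2 libraries is not given in the labels. The summed reads were 22975721 in pubs hy2 red light, 15098942 in pubs hy2 dark, 24560044 in wild-type red light and 17560594 in wild-type dark. With no replicate of any group, no value below has a replicate check, and higher and lower refer to libraries. Intervals are exact 95% Clopper-Pearson intervals that cover counting error only.

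As background, phytochromes are photoreceptors that carry a linear tetrapyrrole, a bilin, and switch between a red-absorbing and a far-red-absorbing form. HY2 and PUBS are bilin reductases that make such pigments from biliverdin, and a plant that lacks them has little or no photoactive phytochrome. In moss protonema phytochrome takes part in the direction of filament growth and in branching. The identifiers in the files carry no gene names, and 0 of them were matched to the RefSeq annotation at hand. The mutated genes and markers of chloronema were therefore not looked up, and members are given by identifier, or by their rank in mean RPKM over the pubs hy2 libraries. No sequence is shown for the same reason.

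Of 30696 singly mapped genes, 645 had genotype ratios of at least 8 in both light conditions. In 123 of these the pubs hy2 share in red light lay outside the limits of 0.5 and 2 times the dark share. Another 261 had at most 3 reads in each wild-type library, and 143 more had a mean pubs hy2 RPKM under 30, which left the 118 members. A further 19 genes met every condition but the multi-mapping limit. The members nearest to the limits had a dark ratio of 8.31, a red light ratio of 8.12, and a mean pubs hy2 RPKM of 30.2. The nearest genes outside that met all other conditions had a dark ratio of 7.95, a red light ratio of 7.997 and a mean RPKM of 28.8. The limits on red light over dark in pubs hy2 passed close to no member, the extreme ratios being 0.559 and 1.69 inside and 0.483 and 2.14 outside. The interval of the fold lay wholly above 8 in both light conditions for 114 of the 118 members. The smallest lower bounds were 4.90 in red light and 6.61 in the dark.

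The members took 3.59% of the reads in pubs hy2 red light and 3.73% in pubs hy2 dark, against 0.193% in wild-type red light and 0.209% in wild-type dark. They made up 3.38% of the 3494 singly mapped genes with a mean pubs hy2 RPKM of at least 30. The 10 most abundant members alone took 1.63% in either pubs hy2 library, against 0.0979% in wild-type red light and 0.0997% in wild-type dark. In bulk libraries, more cells of a type and more RNA per cell cannot be told apart. The median RPKM of the members was 80.7 in pubs hy2 red light and 93.1 in pubs hy2 dark, against 3.66 in wild-type red light and 4.79 in wild-type dark. For comparison, the median over all detected singly mapped genes was 7.34 and 7.65 in pubs hy2 red light and dark, and 7.98 and 8.80 in wild-type red light and dark.

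The ranks within each library show the same shift. Among all 32273 genes, the median rank of the members by RPKM was 1229 in pubs hy2 red light and 1056 in pubs hy2 dark, against 15132 in wild-type red light and 14415 in wild-type dark. The 100 most abundant genes included 7 members in pubs hy2 red light and 8 in pubs hy2 dark, against 0 in either wild-type library. An RPKM of at least 10 was reached by all 118 members in both pubs hy2 libraries, against 22 in wild-type red light and 30 in wild-type dark. An RPKM under 1 was found for 0 members in pubs hy2, against 19 in wild-type red light and 18 in wild-type dark. The lower of a member's pubs hy2 values exceeded the higher of its wild-type values by at least 5.16 times, by 15.3 times at the median, and by 10 times or more in 89 members.

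**Figure D1:**
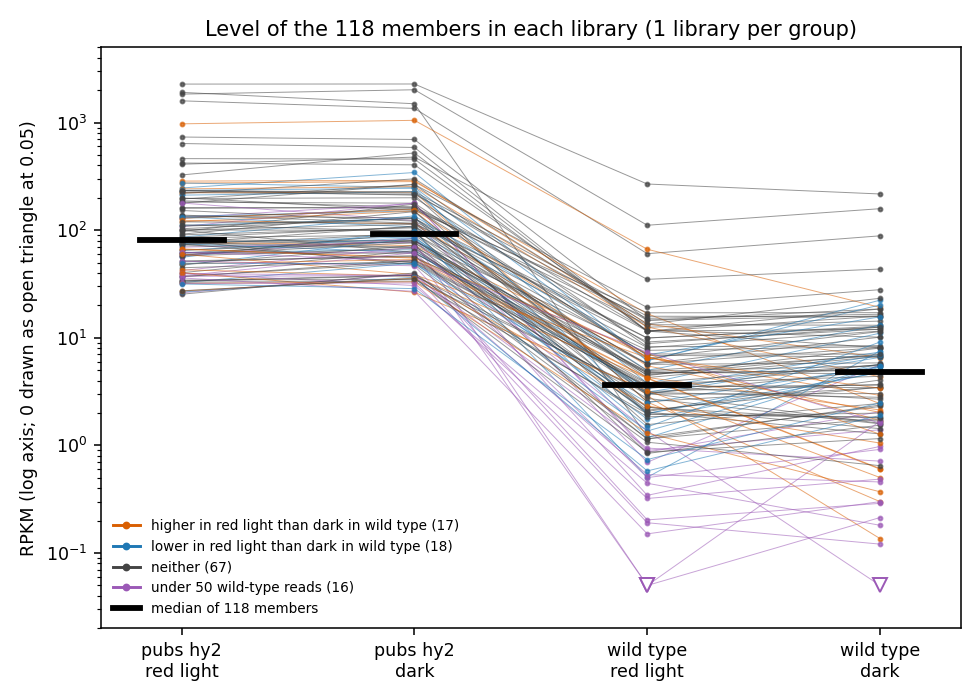
RPKM (log axis) of each of the 118 members in the 4 libraries, 1 line per member, coloured by its difference between red light and dark in wild type, with the median of each library as a black bar. The lines run nearly flat between the pubs hy2 libraries (medians 80.7 and 93.1), drop to medians of 3.66 and 4.79 in wild type, and cross each other more between the wild-type libraries.

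The 2 most abundant members had high levels in wild type too. Pp1s71_207V6 led with 2279 RPKM in pubs hy2 red light and 2284 in pubs hy2 dark, against 269 in wild-type red light and 217 in wild-type dark. It ranked 11th and 12th among all genes in the pubs hy2 red light and dark libraries, and 226th and 291st in those of wild type. Its genotype fold was 8.70 (interval 8.54 to 8.88) in red light and 11.3 (11.0 to 11.6) in the dark. The next, Pp1s257_73V6, had 1839 RPKM in pubs hy2 red light and 2019 in pubs hy2 dark, against 111 in wild-type red light and 159 in wild-type dark. Both genes thus ranked among the upper 1000 genes of every library, and their folds lay below the medians of the group.

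Pp1s25_135V6, the third most abundant member, shows the other extreme. It had 37967 reads in pubs hy2 red light and 19445 in pubs hy2 dark, against 26 in wild-type red light and 35 in wild-type dark. In RPKM this is 1909 in pubs hy2 red light and 1496 in pubs hy2 dark, against 1.20 in wild-type red light and 2.30 in wild-type dark. The gene was among the 20 most abundant in both mutant libraries, with ranks of 12 and 17, and stood at ranks 18066 and 16806 in wild type. Its genotype fold was 1630 (1113 to 2496) in red light and 696 (501 to 1000.1) in the dark. The smaller of these was the highest such value of any member. It was the only one of the 11 members of at least 300 RPKM whose folds were at least 64 in both light conditions.

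The folds differed little between tiers of abundance. The 11 members with a mean pubs hy2 RPKM of at least 300 had median folds of 29.1 in red light and 30.2 in the dark. The 43 members between 100 and 300 RPKM had 22.8 and 21.7, and the 64 members between 30 and 100 RPKM had 22.4 and 20.4. The mean wild-type RPKM spanned 1.75 to 243 in the first tier, 1.15 to 23.6 in the second and 0.107 to 7.97 in the third, so that the tiers overlapped in wild type. Across the 118 members the Spearman correlation between mean pubs hy2 RPKM and mean wild-type RPKM was 0.697. The rule fixes a minimum for one and a minimum ratio between both, so this value is a description.

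The folds covered a wide range above the limit that chose them. With 0.5 added to each count, the median fold of pubs hy2 over wild type was 22.9 in red light and 21.9 in the dark, against 0.971 and 0.949 over the measured genes, meaning singly mapped ones that had 50 reads or more in the compared libraries together. All 118 members were past 8-fold, where 3.04% of measured genes were in red light and 2.66% in the dark. A fold of at least 16 was found for 81 members in red light, where 1.65% of all measured genes reached it, and for 80 in the dark, where 1.45% did. A fold of at least 32 was found for 42 members in red light (0.770% of measured genes) and for 46 in the dark (0.737%), and one of at least 64 for 21 (0.276%) and 25 (0.273%). At least 16-fold in both light conditions were 67 members, against 0.947% of measured genes. A fold of at least 64 in both conditions was reached by 14 members, against 0.134% of measured genes. The rule used these contrasts, so the counts are not set against the background as a result.

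Some of the largest folds rest on very few wild-type reads. Pp1s136_219V6 had 3405 reads in pubs hy2 red light and 2478 in pubs hy2 dark, against 0 in wild-type red light and 8 in wild-type dark. With the floor of 3 counts in place of the 0, its fold in red light was 1267, and the lower end of its counting interval was 1030. In the dark its fold was 388 (197 to 900.3). Its level in the mutant was moderate, 69.6 RPKM in red light and 77.5 in the dark. In all, 11 members had at most 20 reads in both wild-type libraries, 2 had 0 reads in wild-type red light and 1 had 0 in wild-type dark. For these genes the fold is limited by the depth of the wild-type libraries, whose floor of 3 counts corresponded to 0.120 CPM (scaled counts) in red light and 0.164 CPM in the dark.

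**Figure D2:**
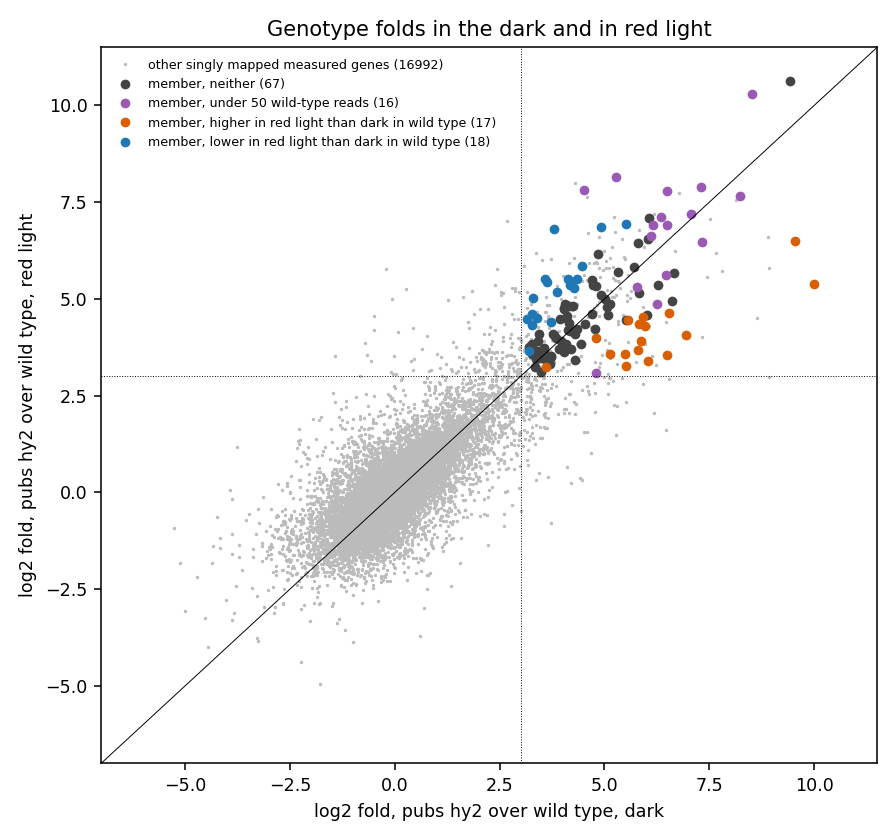
Log2 fold of pubs hy2 over wild type in the dark (x) and in red light (y) for each singly mapped measured gene (grey) and each member (coloured), with dotted lines at 8-fold and the diagonal of equal folds. All 118 members lie above both dotted lines by the choice of genes. The 17 members that were higher in red light in wild type lie below the diagonal and the 18 that were lower lie above it, which follows largely from how they were picked.

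Red light over dark in pubs hy2 was bounded by the rule, and the members lay well within the bounds. The median log2 fold was -0.06, against 0.01 over all measured genes. By the size rule used here, a fold of at least 2 with an interval that excludes 1, 0 members were higher and 0 were lower, as the selection requires, where 4.07% and 1.95% of all measured genes were. Smaller differences were common at these read numbers. The interval lay above 1 for 32 members and below 1 for 61, and it included 1 for 25. The same counts over all measured genes are not given here, so these numbers are a description only. The log2 fold was within 0.3 of 0 for 72 members, 61.0%, against 56.4% of all measured genes.

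At the upper end, Pp1s114_7V6 had 80.2 RPKM in pubs hy2 red light and 47.7 in pubs hy2 dark, which is 1.68-fold (1.60 to 1.77). Its wild-type values were 1.15 RPKM in red light and 1.78 in the dark, with a fold of 0.679 (0.499 to 0.921). Pp1s22_332V6 followed with 100.1 RPKM in pubs hy2 red light and 61.9 in pubs hy2 dark, a fold of 1.62 (1.47 to 1.78), while its wild-type values of 3.59 in red light and 3.43 in the dark differed by less than the counting error (fold 1.09, interval 0.724 to 1.66). At the lower end, Pp1s309_36V6 had 97.1 RPKM in pubs hy2 red light and 174.8 in pubs hy2 dark, a fold of 0.556 (0.527 to 0.586). Its wild-type values were 1.94 RPKM in red light and 1.83 in the dark, with an interval of the fold that included 1. The fold in pubs hy2 divided by the fold in wild type was 2.48 (1.84 to 3.34) for Pp1s114_7V6, 1.49 (0.992 to 2.23) for Pp1s22_332V6 and 0.502 (0.331 to 0.762) for Pp1s309_36V6. These genes were picked for their extreme folds in the mutant.

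Red light over dark in wild type was not part of the rule, though the same wild-type libraries entered it. Of the 118 members, 102 had at least 50 reads in both wild-type libraries together. Among these, 17 (16.7%) were at least 2-fold higher in red light, where 5.88% of all 17274 measured genes were, and 18 (17.6%) were at least 2-fold lower, where 5.35% were. The remaining 67 passed in neither direction. The median log2 fold was -0.16 over the 102 and -0.26 over all 118 members, against -0.02 over all measured genes. Their spread was wider, with an SD of the log2 fold across genes of 1.25, against 0.71 over all measured genes. A log2 fold within 0.3 of 0 was found for 28.4% of them, against 52.0% of all measured genes.

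Genes with few wild-type reads passed the size rule more often in general, so the shares are also given by read number. Among members with 50 to under 200 wild-type reads, 5 of 29 were higher and 5 were lower, 17.2% each, against 10.4% and 14.6% of all singly mapped genes in that band. With 200 to under 1000 reads it was 10 of 55 higher (18.2%) and 12 lower (21.8%), against 4.84% and 5.25%. With 1000 or more reads it was 2 of 18 higher and 1 lower, against 5.26% and 2.72%. The lowest band thus stood nearer to its background than the middle one. The highest band holds too few members to be read.

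**Figure D3:**
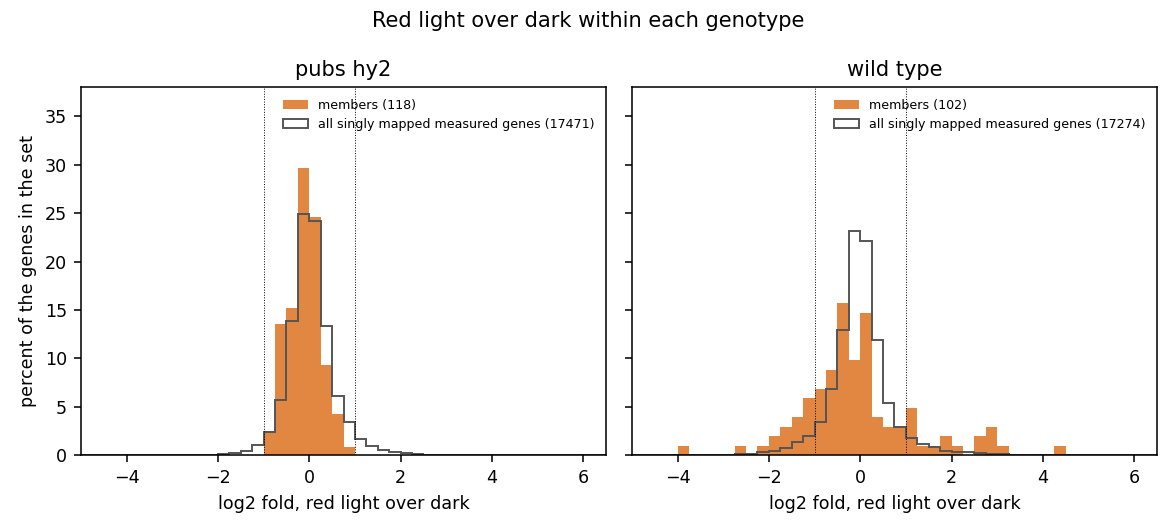
Distribution of the log2 fold of red light over dark in pubs hy2 (left) and in wild type (right) as a percentage of the members (filled) and of all singly mapped measured genes (outline), with dotted lines at 2-fold. The 118 members stay inside the lines in pubs hy2, as the rule requires, whereas in wild type 17 of 102 members were called higher and 18 called lower.

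The members that were higher or lower in wild-type red light were picked for their wild-type fold, and the rule bounds the fold in pubs hy2. How the genotype fold then differs between red light and dark follows largely from these choices, and the values are a description. The 17 members that were higher in wild-type red light had a wild-type RPKM with a median of 5.49 (range 1.30 to 66.5) in red light and 1.70 (0.136 to 19.2) in the dark. In pubs hy2 the medians were 77.5 in red light and 71.9 in the dark. The median genotype fold was 16.01 in red light and 58.6 in the dark, and the smallest in red light was 9.40.

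Pp1s129_85V6 had the highest such fold. It had 3449 reads in pubs hy2 red light and 2836 in pubs hy2 dark, against 91 in wild-type red light and 3 in wild-type dark. Its red light fold was 22.3 (7.39 to 110.0) in wild type and 0.796 (0.757 to 0.836) in pubs hy2. Its genotype fold was therefore 42.3 (34.4 to 52.7) in red light and 1185 (405.0 to 5749) in the dark. Pp1s20_253V6 came next, with 5827 reads in pubs hy2 red light and 3857 in pubs hy2 dark, against 72 in wild-type red light and 6 in wild-type dark. Its red light fold was 8.81 (3.86 to 24.8) in wild type, and in pubs hy2 it was 0.988 (0.949 to 1.03). These were also the members with the largest dark genotype folds, and both rest on fewer than 10 dark reads in wild type.

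The abundant end of the group held such genes as well. The member ranked 5th had 974 RPKM in pubs hy2 red light and 1050 in pubs hy2 dark (1049.5), against 66.5 in wild-type red light and 19.2 in wild-type dark. Its red light fold in wild type was 3.63 (3.23 to 4.09), and its fold in pubs hy2 was 0.929 (0.910 to 0.948). With 1711 reads in wild-type red light and 346 in wild-type dark, counting error is small for this gene.

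The 18 members that were lower in wild-type red light had a wild-type RPKM with a median of 2.24 (range 0.506 to 6.94) in red light and 6.74 (1.90 to 22.4) in the dark. In pubs hy2 the medians were 75.3 in red light and 92.3 in the dark. The median genotype fold was 40.0 in red light and 13.5 in the dark.

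Pp1s130_124V6 had the lowest fold, with 25 reads in wild-type red light and 262 in wild-type dark, a fold of 0.0701 (0.0445 to 0.106). In pubs hy2 it had 2543 and 2905 reads in red light and dark, a fold of 0.573 (0.543 to 0.604). Its genotype fold was 114 (76.8 to 176) in red light and 13.9 (12.2 to 15.8) in the dark. Pp1s75_107V6 had 1784 reads in pubs hy2 red light and 2075 in pubs hy2 dark, against 61 in wild-type red light and 264 in wild-type dark. Its red light fold was 0.170 (0.126 to 0.225) in wild type and 0.562 (0.528 to 0.599) in pubs hy2. Both genes were lower in red light in both genotypes, by a larger factor in wild type.

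**Figure D4:**
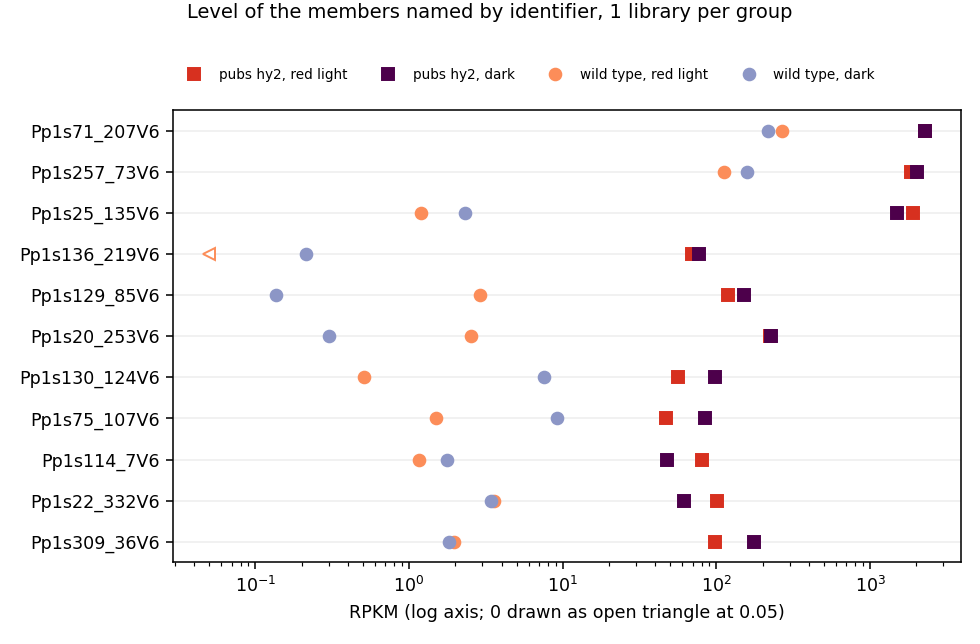
RPKM (log axis) of the 11 members named by identifier, with pubs hy2 libraries as squares and wild-type libraries as circles, and a value of 0 as an open triangle. The squares of each gene lie close together, within a fold of 0.556 to 1.68, while the circles of Pp1s129_85V6 and Pp1s130_124V6 lie more than 10-fold apart in opposite directions.

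Over all 118 members, the genotype fold was larger in red light for 64 and larger in the dark for 54. Dividing the fold in red light by the fold in the dark gave a ratio that was at least 2 for 22 members, where 8.20% of 18654 singly mapped genes were, and at most 0.5 for 18, where 5.55% were, each with an interval off 1. The limit on red light over dark in pubs hy2 enters this ratio for the members and not for the other genes, so the shares are not set against each other as a result. Among the 102 members measured in both genotypes, red light over dark ran in opposite directions in 23, with intervals off 1 in both, where 11.1% of measured genes did. Of the 23, 13 were higher in red light in pubs hy2 and lower in wild type, and 10 were lower in pubs hy2 and higher in wild type. The interval in pubs hy2 was off 1 for 93 of all 118 members, at a median of 3406 reads in red light. No share over all measured genes is given beside this count, and the part of read number in it was not tested. The Spearman correlation between red light and dark RPKM over the members was 0.942 in pubs hy2, where the rule keeps both values within a factor of 2, and 0.751 in wild type, where it sets no such limit. The wild-type values also rest on fewer reads, a median of 146.5 in red light and 131 in the dark, against 3406 and 2457 in pubs hy2.

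Gene length entered the rule through RPKM, which is divided by it. It also entered through the minimum of wild-type reads, which are not scaled to length. The median length was 1.54 kb (quartiles 1.11 and 2.18), against 1.53 kb (0.960 and 2.14) for all 3494 singly mapped genes with a mean pubs hy2 RPKM of at least 30. It was 1.75 kb for the 18654 singly mapped genes with 50 reads or more in all. The shortest member had 0.063 kb and the longest 4.09 kb, and 6 members were under 0.25 kb. In these 6, few reads give a high RPKM. The shortest had 102 reads in pubs hy2 red light and 55 in pubs hy2 dark, against 13 in wild-type red light and 2 in wild-type dark. Multi-mapping reads, which the rule limits, were found in 5 members, with a largest share of 4.55% in a library.

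The members were spread over 87 scaffolds, of which 66 held 1 member, 12 held 2, 8 held 3 and 1 held 4. The position of a gene was read from its identifier, whose last number was taken as the order along the scaffold. This gives no distance in base pairs. There were 2 pairs of members with consecutive numbers. In 1 pair, Pp1s22_332V6 adjoined the member ranked 15th, which had 274.5 RPKM in pubs hy2 red light and 250.0 in pubs hy2 dark, against 6.11 in wild-type red light and 22.4 in wild-type dark. The neighbours were not alike in wild type, where the red light fold was 1.09 for the first and 0.286 (0.2503 to 0.325) for the second. The other pair held the members ranked 24th and 67th, a gene of 0.132 kb beside one of 0.831 kb. Within 5 numbers 8 members had another member nearby, and within 10 numbers 14 did. No such count over other genes is given beside these, so they show no excess or lack of neighbouring members.

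Genes that adjoin the members in this order were higher in pubs hy2 more often than genes at large. Steps count genes in this order rather than numbers, so the numbers of adjoining genes could differ by more than 1, for example by 9. Of 225 such genes that are not members, 107 were measured in both light conditions. By the size rule 31 of them (29.0%) were higher in pubs hy2 in both red light and the dark, where 9.95% of 17110 measured genes were. Of the 107, 1 was lower in both, where 4.40% of measured genes were. At 2 and 3 steps along the order the shares were 14.4% (18 of 125) and 15.7% (19 of 121), and at 5 and 10 steps they were 7.96% (9 of 113) and 11.3% (11 of 97). Around the other singly mapped genes of at least 30 RPKM in pubs hy2, the share was 11.0% at 1 step and between 9.59% and 10.1% farther out. The share was thus highest next to the members. It was lower at 2 and 3 steps, and at 5 steps it lay below the 9.95% of all measured genes.

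At least 8-fold higher in both light conditions were 12 of the 107 measured adjoining genes, all among the 31. Of all measured genes, 3.04% were at least 8-fold higher in red light and 2.66% in the dark, each condition taken alone. The median RPKM of the 31 in pubs hy2 was 18.4, and their level was 18.0% of that of the adjoining member at the median, with 11 of 31 under 10%. The 76 other adjoining genes had a median RPKM of 16.4 and stood at 13.0% of the member, with 32 of 76 under 10%. The median length was 1.44 kb for the 31 and 2.07 kb for the 76. No strand-keeping step is named in the protocol, and how reads shared by overlapping genes were counted is not given in the sources used here. Overlap of the gene models was not analysed here, and its part in these counts was not tested.

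**Figure D5:**
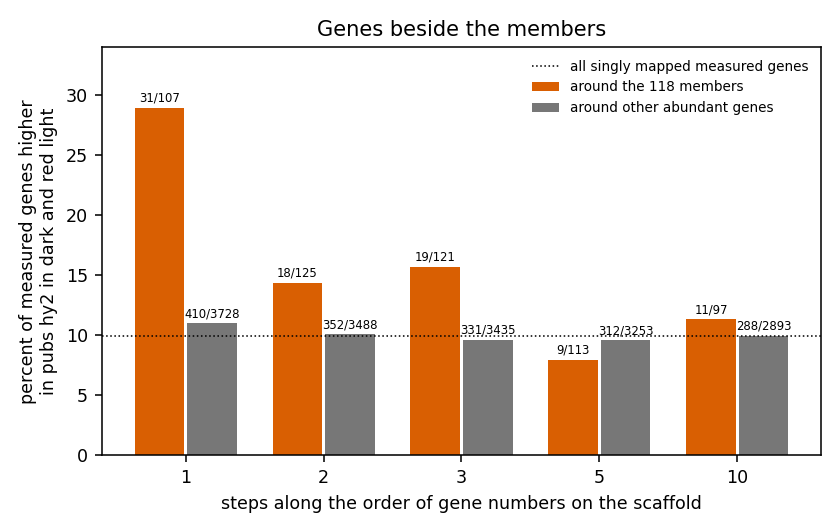
Percentage of measured genes past the 2-fold size rule as higher in pubs hy2 in both light conditions, at 1 to 10 steps from a member (orange) and from other abundant genes (grey), with the numbers of genes above the bars and the share over all measured genes (9.95%) as a dotted line. The first orange bar stands at 29.0% and the others between 7.96% and 15.7%.

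Beside the members stand 143 genes that met every condition but the RPKM limit, and 261 genes with at most 3 reads in each wild-type library. The median fold was 22.9 in red light and 21.9 in the dark for the members. For the measured genes of the first set it was 19.2 in red light and 17.9 in the dark. For the measured ones of the 261 genes it was higher, 32.9 in red light (59 genes) and 35.3 in the dark (35 genes). Most of the 261 genes had too few reads to be measured. The measured ones had at most 3 reads in each wild-type library and at least 50 in the compared libraries together. This sets a high minimum for their fold, so their medians are a description only. The members took 3.59% and 3.73% of the pubs hy2 reads in red light and dark, against 0.247% and 0.254% for the 143 genes and 0.0431% and 0.0453% for the 261 genes. The median length was 1.54 kb in the members, 1.39 kb in the 143 genes and 0.450 kb in the 261 genes. The 261 genes were picked by a limit on reads, which are not scaled to gene length, so their length is a description only. Lengths that are multiples of 3 bases made up 41.5% of the members, 60.1% of the 143 genes and 90.4% of the 261 genes. The share was 39.3% of all singly mapped genes of at least 30 RPKM in pubs hy2, a limit that the 143 genes do not reach. It was 49.6% of the 18654 singly mapped genes with 50 reads or more in all. Among the 143 genes, 34 had enough wild-type reads for the light comparison, of which 1 was higher and 5 were lower in red light.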

How the data were processed

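The authors deposited, per the file headers, an estimated count of reads, an RPKM value, a gene length in kilobases and the fraction of reads that map to several places, for each gene in each of 4 libraries. Per the labels' protocols the libraries were made from poly-A RNA by random priming, with 18 PCR cycles. Aligner, genome build and the sharing of multi-mapping reads are not given in the sources used here. Members were found from the deposited values (9 of their 472 counts carried decimals). For everything else estimated counts were rounded and scaled with R 4.3.3 and edgeR 4.0.16, whose TMM factors were 0.973 in pubs hy2 red light, 0.969 in pubs hy2 dark, 1.02 in wild-type red light and 1.04 in wild-type dark. Levels are the authors' RPKM. Folds of single genes are ratios of scaled counts. Medians and SDs of log2 folds were taken after adding 0.5 to each count. A gene with 0 reads in 1 library was set to 3 counts there, a bound. The size rule calls a fold of at least 2 with a 95% counting interval off 1 at 50 or more reads in the libraries compared. The ratio of red light folds has a log-scale interval. No p-value was computed, because there is 1 library per group. The members, lists and rules were chosen with earlier results of these data known. Identifiers were printed for at most 2 members at each end of each comparison, since no table names them, and other members are given by rank. Alternatives changed the scaling (DESeq2 1.42.0 size factors among them), depth, read minimum, fold, pseudocount and limits of the rule. Other steps used matplotlib 3.10.9, scipy 1.17.1, pandas 2.3.3, numpy 2.4.6 and Python 3.11.15.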

Additional observations from a re-analysis of the deposited data

Results flagged for a closer look

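Of the 102 members measured in both genotypes, 23 had red light folds that ran in opposite directions in pubs hy2 and wild type. Their intervals excluded 1 in both genotypes. The same held for 11.1% of all 16706 genes measured in both. The part of read number in these counts was not tested. The 6 of the 23 given here are those among the members singled out for their abundance, an extreme fold or an adjoining member. The difference between the genotypes was not tested, since there are no replicates, and several of these 6 members were picked for extreme folds. The values are the log2 fold in pubs hy2 minus the log2 fold in wild type. This difference was 1.22 for Pp1s25_135V6 (folds of 1.28 in pubs hy2 and 0.546 in wild type), 1.31 for Pp1s114_7V6 (1.68 and 0.679) and -4.59 for Pp1s129_85V6 (0.796 and 22.3). It was 0.72 for the member ranked 4th (1.18 and 0.714), -1.97 for the member ranked 5th (0.929 and 3.63) and 1.94 for the member ranked 15th (1.10 and 0.286).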

How the results depend on the processing

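Of 54 values recomputed under an alternative, 47 stayed within their limits: within the exact binomial interval of the median for medians, and within 1.5 times for counts. The interval of the median reflects the spread across members, which are not replicates. It is a wide limit that small shifts in scaling could hardly leave. The number of members was 263 with genotype ratios of at least 4 and 62 with ratios of at least 16, and all 62 were among the 118. Members higher in red light in wild type numbered 11 at a fold of at least 3. Members lower in red light in wild type numbered 31 at a fold of at least 1.5 and 8 at a fold of at least 3. These counts move because the fold itself was the setting. Members with another member nearby numbered 4 within 1 gene number and 14 within 10, against 8 within 5. Without TMM factors the median log2 fold over all measured genes between the genotypes in the dark moved by 0.11, and that of the members was 4.34 in place of 4.45. Leaving out members under 0.25 kb, an alternative chosen after seeing the data, gave 17 higher and 17 lower. No paired analysis was possible because each group has 1 library. Depth limits the wild-type values of members at few reads, of which 16 had under 50 reads in both wild-type libraries together.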
